A study of Chlorocebus sabaeus with 18 samples.

Results

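The genes described here are 37 genes of the NRF2 antioxidant response and of the enzymes that make NADPH, taken from a list by symbol. Each gene was read from the transcript cluster (the unit of probes that stands for a gene on the array) with the highest mean under its symbol. All 37 were found among the 33616 genes with a symbol of their own, which lie on 135750 transcript clusters. They comprise 3 regulators, 9 genes of glutathione, 5 of the thioredoxin system, 5 that make NADPH or feed that supply, 8 of detoxification and export, 5 other NRF2-linked genes and 2 enzymes of superoxide and peroxide. ABCC2, an export pump, lay between 2.93 and 3.94 on the log2 scale in all arrays, below the filter on low values at 4.14. It was not tested, which left 36 genes.

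Total RNA came from COS-7 cells, an established line of monkey kidney origin (Chlorocebus sabaeus), and was measured on 18 Clariom D Human arrays, whose probes were designed against human transcripts. There were 6 groups of 3 arrays: cells transfected with 60 CGG repeats in the 5′ untranslated region of FMR1 (CGG), cells overexpressing the splicing factor TRA2A, cells with TRA2A knocked down, cells with CGG and TRA2A overexpression, cells with CGG and TRA2A knockdown, and controls. The study's title ties the design to FXTAS, a disorder of CGG repeats in FMR1, and the comparisons ask how each transfected group differs from the control cells and how the transfected groups differ among themselves. The labels state no transfection for the controls, and the condition of arrays 1, 2 and 3 is written with the names COS-7, COS-6 and COS-5, although the line is COS-7 throughout. The labels name no construct without the repeat as a control for CGG and no control siRNA, and GFP stands in the titles of TRA2A overexpression without CGG only, so the named agents and transfection itself cannot be told apart in any comparison with controls. CGG array 1 and TRA2A-knockdown array 3 were rehybridised. Separate cultures are not stated, so p-values measure the spread between arrays, which may be technical.

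NRF2, encoded by NFE2L2, is a transcription factor that the adaptor KEAP1 holds in the cytoplasm and marks for degradation. Oxidants and electrophiles modify KEAP1, NRF2 then accumulates and, with small MAF partners, binds antioxidant response elements, which the repressor BACH1 also occupies. Its targets make glutathione, reduce oxidised thioredoxin and quinones, conjugate and export foreign compounds, and supply the NADPH on which these reductases run.

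The log2 values of the arrays correlated pairwise with r of 0.974 to 0.986, and array medians were 4.14 to 4.2. The first principal component held 12.7% of the variance and put the control arrays at -79.5, -63.6 and -30.7, against -10.7 to 36.2 for the other 15. TRA2A itself was checked first: its mean signal was 14.57 in CGG cells, 18.53 in TRA2A-overexpressing cells, 11.55 in TRA2A-knockdown cells, 17.16 in cells with CGG and TRA2A overexpression and 11.82 in cells with CGG and TRA2A knockdown, against 14.62 in controls. Set against the filter at 4.14, the kidney gene PAX8 (9.75 to 11.41) and the epithelial genes EPCAM (11.96 to 12.83) and KRT8 (13.66 to 14.19) were above it in every array. The tubule genes LRP2 (3.71 to 4.83) and CDH16 (4.13 to 5.49) fell on both sides of it. PAX2, also a kidney gene, was below the filter in every array (3.22 to 3.87). The leukocyte gene PTPRC (5.86 to 6.89) and the endothelial gene PECAM1 (4.25 to 5.37) were above it in every array. So were the mesenchymal genes FN1 (14.67 to 16.09) and VIM (15.19 to 16.25). Passing the filter therefore did not separate kidney or epithelial genes from those of other cell types. Signals of different probes were not ranked against each other, since monkey sequence can mismatch human probes to differing degrees. In such bulk samples, fewer cells of a type and less RNA per cell cannot be told apart.

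Against controls, NRF2 targets and NADPH enzymes rose in every transfected group, and none was called lower. Of the 36 tested, 14 rose in CGG cells, 17 in TRA2A-overexpressing cells, 17 in TRA2A-knockdown cells, 13 in cells with CGG and TRA2A overexpression and 17 in cells with CGG and TRA2A knockdown (limma, Benjamini-Hochberg adjusted p below 0.05 over all 67854 tested transcript clusters). The share of all tested clusters called higher was 0.504%, 0.949%, 1.13%, 0.732% and 0.682% in the same order of groups. At an unadjusted p below 0.05 the numbers of members were 27, 22, 26, 22 and 25, where 12.7%, 14.8%, 13.1%, 12.7% and 10.6% of all tested clusters passed it. The median log2 change over the 36 was 0.68 for CGG, 0.69 for overexpression, 0.73 for knockdown, 0.60 for CGG with overexpression and 0.72 for CGG with knockdown. The median over all tested clusters was -0.013, 0.007, 0.010, 0.013 and 0.007 in that order, and over the 16868 tested clusters with 1 symbol and a mean above the 75th percentile it was 0.1, 0.187, 0.143, 0.203 and 0.123. All 5 comparisons use the same 3 control arrays, so their values are given side by side and are not separate evidence.

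GCLM, SLC7A11, GSR, TXNRD1, SRXN1, PGD, TKT, NQO1, EPHX1, CBR1 and AIFM2 rose in all 5 comparisons, 11 of the 36, where 0.15% of all tested clusters did. A further 9 rose in 1 to 4 comparisons and 16 in none. In 18 members all 15 arrays of transfected cells lay above all 3 controls, as did 1.51% of tested clusters. The median member stood 0.53 to 0.94 above its control mean in each of the 15 arrays of transfected cells, and -0.10, 0.05 and 0.09 from it in control arrays 1, 2 and 3. Without control array 1, the count fell to 9 for overexpression, to 7 for CGG with overexpression and to 10 for CGG with knockdown. It was 8 and 7 for overexpression without that group's array 2 or 3, 7 and 8 for CGG with overexpression without its array 1 or 3, and 11, 10 and 11 for CGG with knockdown without its array 1, 2 or 3. Over all tested clusters, calls in either direction numbered 846, 605 and 665 for these 3 groups in the main fit. With 1 array left out in turn they numbered 188 to 1524, 154 to 1218 and 323 to 897.

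**Figure D1:**
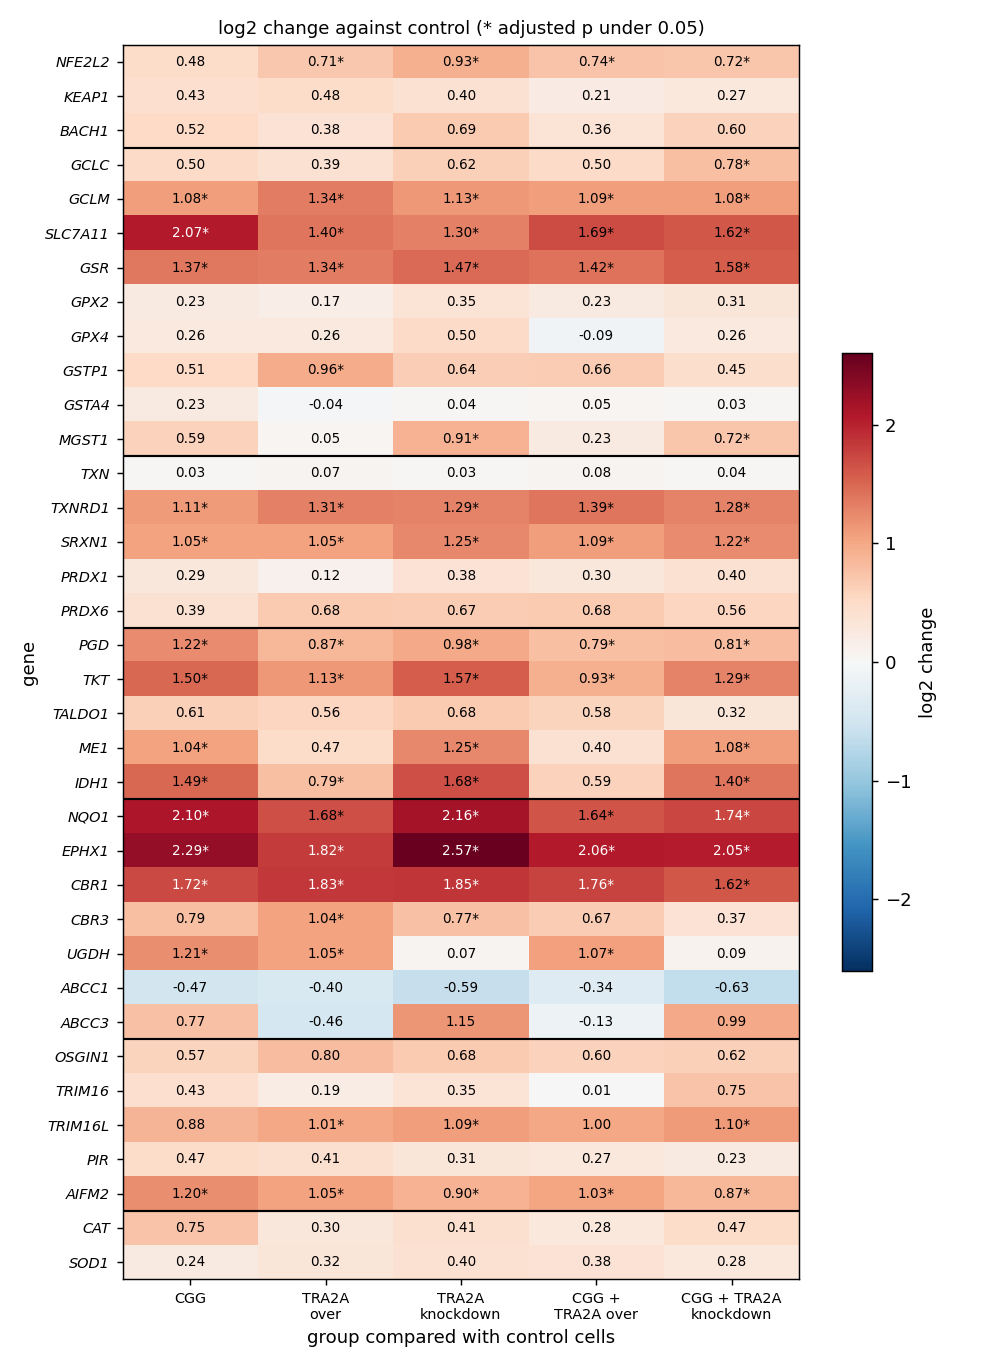
Heat map of the log2 change against controls of the 36 tested genes (down the page, ordered by role) in the 5 transfected groups (across), each a difference of means of 3 arrays. EPHX1, NQO1 and CBR1 reach 1.62 or more in all 5 groups, while UGDH is near 0 in both knockdown groups and ABCC1 lies below 0 throughout.

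Among the regulators, NFE2L2 rose modestly in 4 of the 5 comparisons, and KEAP1 and BACH1, which oppose NRF2, were called in none at the gene level as deposited. The signals of NFE2L2, which encodes NRF2 itself, were 14.02, 14.05 and 14.25 in CGG cells, 14.18, 14.59 and 14.24 in TRA2A-overexpressing cells and 14.47, 14.45 and 14.75 in TRA2A-knockdown cells. They were 14.38, 14.32 and 14.38 in cells with CGG and TRA2A overexpression and 14.29, 14.36 and 14.38 in cells with CGG and TRA2A knockdown, against 13.35, 13.72 and 13.80 in control cells. All 15 arrays of transfected cells lay above the controls, and control array 1 was the lowest. The log2 change was 0.48 for CGG, 0.71 for overexpression, 0.93 for knockdown, 0.74 for CGG with overexpression and 0.72 for CGG with knockdown (SE 0.17 each), with limma adjusted p of 0.221, 0.0438, 0.00569, 0.0435 and 0.0459 in that order. Without control array 1 the call of NFE2L2 ended for overexpression (0.58, adjusted p = 0.206), CGG with overexpression (0.60, 0.204) and CGG with knockdown (0.58, 0.216). These 3 calls also ended under most omissions of another array, where the adjusted p went up to 0.213, 0.147 and 0.150, while no omission ended the call for knockdown.

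KEAP1, the adaptor that holds NRF2 back, had signals of 8.50, 8.46 and 8.59 in CGG cells, 8.53, 8.70 and 8.46 in TRA2A-overexpressing cells and 8.73, 8.39 and 8.32 in TRA2A-knockdown cells. They were 8.71, 8.12 and 8.04 in cells with CGG and TRA2A overexpression and 8.10, 8.56 and 8.40 in cells with CGG and TRA2A knockdown, against 7.63, 7.91 and 8.71 in control cells. The 3 controls were spread from below every other array to near the highest, so all groups overlapped them. Its log2 change was 0.43 for CGG, 0.48 for overexpression, 0.40 for knockdown, 0.21 for CGG with overexpression and 0.27 for CGG with knockdown (SE 0.24 each), with adjusted p of 0.368 to 0.786. BACH1, the repressor at antioxidant response elements, read 8.78, 8.97 and 9.42 in CGG cells, 9.04, 8.68 and 9.02 in TRA2A-overexpressing cells and 9.51, 8.93 and 9.25 in TRA2A-knockdown cells. It read 8.98, 8.76 and 8.94 in cells with CGG and TRA2A overexpression and 8.89, 8.97 and 9.54 in cells with CGG and TRA2A knockdown, against 8.45, 8.28 and 8.88 in control cells. The 3 knockdown arrays and the 3 arrays of CGG with knockdown lay above all controls, and the other groups overlapped them. Changes of BACH1 were 0.52 for CGG, 0.38 for overexpression, 0.69 for knockdown, 0.36 for CGG with overexpression and 0.60 for CGG with knockdown (SE 0.23 each), with adjusted p of 0.149 to 0.546. Read instead from the median of its exon-level features above their filter, a summary chosen after the data were seen, BACH1 was called higher in CGG (0.53, adjusted p = 0.0194), knockdown (0.83, 0.000419) and CGG with knockdown (0.55, 0.0114), and NFE2L2 was called in CGG too (0.59, 0.0315). By this summary 7.82%, 12.2%, 12.4%, 9.73% and 8.84% of all genes were called higher in the usual order of groups.

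**Figure D2:**
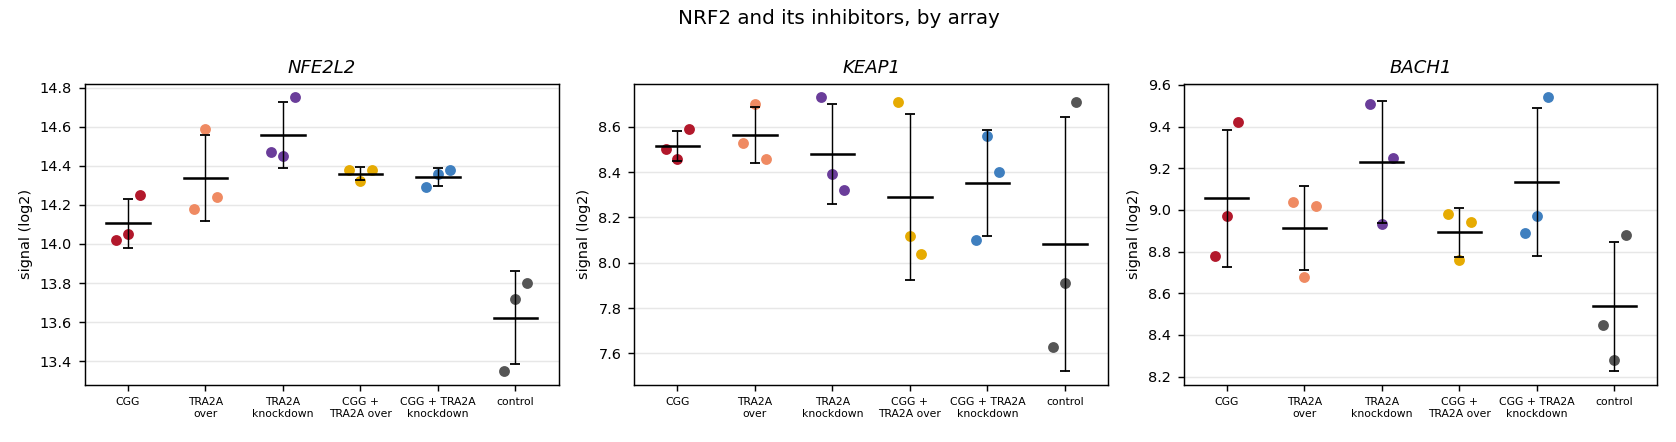
Signal (log2) of NFE2L2, KEAP1 and BACH1 in each array, by group, with the mean (bar) and SD of 3 arrays. The 3 control arrays of NFE2L2 (13.35 to 13.80) lie below all other arrays (14.02 to 14.75), whereas those of KEAP1 (7.63 to 8.71) spread over the other groups.

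In the glutathione class, the cystine importer, glutathione reductase and the modifier subunit of glutathione synthesis rose in every group, and the peroxidases did not pass the test. Of the transferases, GSTP1 was called in 1 comparison, MGST1 in 2 and GSTA4 in none. Of the 9 members of the class, 3 rose in CGG cells, 4 with overexpression, 4 with knockdown, 3 with CGG and overexpression and 5 with CGG and knockdown, with median log2 changes of 0.51, 0.39, 0.64, 0.50 and 0.72. SLC7A11, the light chain of the cystine-glutamate antiporter, had the largest change of the class in CGG cells. Its signals were 12.77, 12.64 and 13.04 in CGG cells, 12.49, 11.81 and 12.15 in TRA2A-overexpressing cells and 11.99, 12.11 and 12.04 in TRA2A-knockdown cells. They were 12.21, 12.45 and 12.66 in cells with CGG and TRA2A overexpression and 12.43, 12.41 and 12.27 in cells with CGG and TRA2A knockdown, against 10.31, 10.86 and 11.08 in control cells. CGG cells were the highest group, above both the overexpression and the knockdown arrays, and no transfected array came down to the level of the controls. Against controls, SLC7A11 changed by 2.07 for CGG, 1.4 for overexpression, 1.30 for knockdown, 1.69 for CGG with overexpression and 1.62 for CGG with knockdown (SE 0.21 each), with adjusted p of 3.25e-05 to 0.0028. In CGG cells this is 4.19-fold higher.

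GSR, the reductase that returns oxidised glutathione to its reduced form with NADPH, read 12.86, 12.52 and 12.76 in CGG cells, 12.47, 12.79 and 12.79 in TRA2A-overexpressing cells and 12.75, 12.55 and 13.12 in TRA2A-knockdown cells. It read 12.98, 12.54 and 12.77 in cells with CGG and TRA2A overexpression and 12.74, 12.89 and 13.14 in cells with CGG and TRA2A knockdown, against 10.92, 11.83 and 11.27 in control cells. The 5 transfected groups overlapped one another and stood clear of the controls, of which array 2 was the highest. Changes of GSR were 1.37 for CGG, 1.34 for overexpression, 1.47 for knockdown, 1.42 for CGG with overexpression and 1.58 for CGG with knockdown (SE 0.22 each), with adjusted p of 0.000745 to 0.00556. GCLM, the modifier subunit of the ligase that makes the first step of glutathione synthesis, had signals of 11.96, 12.70 and 13.03 in CGG cells, 12.98, 12.62 and 12.86 in TRA2A-overexpressing cells and 12.62, 12.62 and 12.59 in TRA2A-knockdown cells. They were 12.56, 12.69 and 12.47 in cells with CGG and TRA2A overexpression and 12.55, 12.70 and 12.42 in cells with CGG and TRA2A knockdown, against 11.51, 11.22 and 11.71 in control cells. CGG array 1, a rehybridised array, was the lowest transfected array and still above every control. The log2 change was 1.08 for CGG, 1.34 for overexpression, 1.13 for knockdown, 1.09 for CGG with overexpression and 1.08 for CGG with knockdown (SE 0.22 each), with adjusted p of 0.00513 to 0.0235.

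GCLM's call ended for CGG, CGG with overexpression and CGG with knockdown without control array 1 or 2. It also ended without CGG array 2 or 3, without any 1 array of CGG with overexpression, and without array 1 or 2 of CGG with knockdown, with changes of 0.85 to 1.14 and adjusted p of 0.0593 to 0.137. GCLC, the catalytic subunit of the same ligase, passed the test in CGG with knockdown (0.78 ± 0.18 SE, adjusted p = 0.0369), and its change was 0.39 to 0.62 in the other 4 groups with all 15 transfected arrays above the controls. The GCLC call ended in 11 of 18 omissions of an array, among them each control and each array of the group (0.68 to 0.85, adjusted p up to 0.180). In none of the 8 pairs of transfected groups was GCLC called.

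GSTP1, a cytosolic glutathione transferase, read 14.47, 14.82 and 14.68 in CGG cells, 14.80, 15.37 and 15.15 in TRA2A-overexpressing cells and 14.93, 14.49 and 14.96 in TRA2A-knockdown cells. It read 15.14, 14.64 and 14.64 in cells with CGG and TRA2A overexpression and 14.41, 14.56 and 14.83 in cells with CGG and TRA2A knockdown, against 13.93, 14.05 and 14.47 in control cells. The overexpression group had the highest mean, and CGG array 1 and CGG-with-knockdown array 1 did not exceed control array 3. The change in TRA2A-overexpressing cells was 0.96 ± 0.21 (SE, adjusted p = 0.0319), and in the other groups 0.45 to 0.66 with adjusted p of 0.159 to 0.465. The call ended without control array 1 (0.85, adjusted p = 0.162) or 2 (0.91, 0.0745) and without overexpression array 2 (0.82, 0.174) or 3 (0.93, 0.115).

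MGST1, a transferase of membranes, separated the groups: it rose by 0.91 ± 0.16 in knockdown cells (adjusted p = 0.00468) and by 0.72 in CGG with knockdown (adjusted p = 0.0320), and its change was 0.59 in CGG cells, 0.05 in overexpressing cells and 0.23 in CGG with overexpression. The call for CGG with knockdown ended without control array 1 or 2 or any 1 array of that group (0.68 to 0.80, adjusted p of 0.0526 to 0.135). GPX2 and GPX4, peroxidases that use glutathione, and GSTA4, a transferase for lipid aldehydes, were called in none. GPX4, which reduces lipid peroxides in membranes, averaged 13.51 ± 0.32 in CGG cells and 13.24 ± 0.10 in controls (SD, n = 3 each).

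In the thioredoxin class, the reductase and sulfiredoxin rose in all 5 groups and the abundant proteins they serve were not called. TXNRD1, the reductase that recharges thioredoxin with NADPH, had signals of 14.02, 14.28 and 14.54 in CGG cells, 14.45, 14.42 and 14.58 in TRA2A-overexpressing cells and 14.49, 14.40 and 14.48 in TRA2A-knockdown cells. They were 14.40, 14.66 and 14.62 in cells with CGG and TRA2A overexpression and 14.43, 14.42 and 14.50 in cells with CGG and TRA2A knockdown, against 13.07, 13.37 and 13.07 in control cells. The lowest transfected array, CGG array 1, was well above the highest control. Against controls, TXNRD1 changed by 1.11 for CGG, 1.31 for overexpression, 1.29 for knockdown, 1.39 for CGG with overexpression and 1.28 for CGG with knockdown (SE 0.16 each), with adjusted p of 0.000211 to 0.00151. SRXN1, sulfiredoxin, which repairs overoxidised peroxiredoxins, read 6.19, 5.86 and 6.54 in CGG cells, 6.10, 6.34 and 6.13 in TRA2A-overexpressing cells and 6.54, 6.25 and 6.38 in TRA2A-knockdown cells. It read 6.18, 6.07 and 6.44 in cells with CGG and TRA2A overexpression and 6.17, 6.55 and 6.38 in cells with CGG and TRA2A knockdown, against 5.46, 5.11 and 4.86 in control cells. Its groups of transfected cells overlapped one another and none overlapped the controls. Changes of SRXN1 were 1.05 for CGG, 1.05 for overexpression, 1.25 for knockdown, 1.09 for CGG with overexpression and 1.22 for CGG with knockdown (SE 0.20 each), with adjusted p of 0.0022 to 0.0153.

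The SRXN1 call ended without control array 3 (0.91, adjusted p = 0.0503) or CGG array 3 (0.88, 0.104) in the CGG comparison, without overexpression array 2 (0.97, 0.0846) or 3 (1.08, 0.0562), and without array 1 (1.11, 0.0542) or 3 (0.98, 0.0681) of CGG with overexpression. TXN, thioredoxin itself, read 19.74 to 19.92 in all 18 arrays, at the top of the scale, where the highest value of any cluster in any array was 19.93, so a change in it could not be read here. PRDX1 and PRDX6, peroxiredoxins that reduce peroxides, were not called. All 15 transfected arrays of PRDX6 were nonetheless above its controls.

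In the NADPH class, enzymes of the pentose phosphate pathway and of malate and isocitrate oxidation rose: 4 of 5 members in CGG, in knockdown and in CGG-with-knockdown cells, 3 in overexpressing cells and 2 in CGG with overexpression. PGD, 6-phosphogluconate dehydrogenase, read 12.11, 11.80 and 12.25 in CGG cells, 11.75, 11.60 and 11.74 in TRA2A-overexpressing cells and 11.74, 11.72 and 11.97 in TRA2A-knockdown cells. It read 11.64, 11.48 and 11.75 in cells with CGG and TRA2A overexpression and 11.47, 11.54 and 11.91 in cells with CGG and TRA2A knockdown, against 10.64, 10.96 and 10.89 in control cells. All transfected arrays lay above the controls, and CGG arrays 3 and 1 were the highest. Changes of PGD were 1.22 for CGG, 0.87 for overexpression, 0.98 for knockdown, 0.79 for CGG with overexpression and 0.81 for CGG with knockdown (SE 0.17 each), with adjusted p of 0.00116 to 0.0362.

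TKT, the transketolase that links the pathway to glycolysis, had signals of 14.51, 14.52 and 14.64 in CGG cells, 14.00, 14.24 and 14.33 in TRA2A-overexpressing cells and 14.55, 14.32 and 15 in TRA2A-knockdown cells. They were 14.27, 13.72 and 13.97 in cells with CGG and TRA2A overexpression and 14.21, 14.21 and 14.62 in cells with CGG and TRA2A knockdown, against 12.86, 13.32 and 12.99 in control cells. Knockdown array 3, a rehybridised array, was the highest, and control array 2 was the highest control. The log2 change was 1.5 for CGG, 1.13 for overexpression, 1.57 for knockdown, 0.93 for CGG with overexpression and 1.29 for CGG with knockdown (SE 0.20 each), with adjusted p of 0.000307 to 0.0363. PGD lost its call without control array 1 in overexpression (0.77, adjusted p = 0.109), CGG with overexpression (0.70, 0.167) and CGG with knockdown (0.71, 0.137), and TKT in overexpression (1.04, 0.0659) and CGG with overexpression (0.83, 0.166). Other single arrays ended these calls too: any 1 of the group's own 3 arrays for PGD, control array 2 and overexpression array 3 for PGD in CGG with overexpression, array 2 or 3 for TKT in overexpression, and array 1 or 3 or control array 3 for TKT in CGG with overexpression, with adjusted p of 0.0510 to 0.179.

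ME1, malic enzyme, which makes NADPH in the cytosol, read 14.51, 14.82 and 14.61 in CGG cells, 14.17, 13.96 and 14.09 in TRA2A-overexpressing cells and 14.78, 14.88 and 14.90 in TRA2A-knockdown cells. It read 14.08, 13.90 and 14.04 in cells with CGG and TRA2A overexpression and 14.60, 14.78 and 14.69 in cells with CGG and TRA2A knockdown, against 13.50, 13.52 and 13.80 in control cells. The arrays fell into a higher set, the CGG, knockdown and CGG-with-knockdown arrays, and a lower set, the 6 overexpression arrays, with all of them above the controls. ME1 rose by 1.04 in CGG cells, 1.25 in knockdown cells and 1.08 in CGG with knockdown (SE 0.15 each, adjusted p of 0.000165 to 0.00154), and its change was 0.47 in overexpressing cells and 0.40 in CGG with overexpression (adjusted p = 0.139 and 0.262). IDH1, the cytosolic isocitrate dehydrogenase, had signals of 11.04, 11.50 and 11.36 in CGG cells, 10.38, 10.71 and 10.70 in TRA2A-overexpressing cells and 11.58, 11.34 and 11.55 in TRA2A-knockdown cells. They were 10.42, 10.15 and 10.62 in cells with CGG and TRA2A overexpression and 11.01, 11.19 and 11.44 in cells with CGG and TRA2A knockdown, against 9.89, 9.58 and 9.96 in control cells. As for ME1, the CGG, knockdown and CGG-with-knockdown arrays lay above the 6 overexpression arrays, and all of these above the controls. Its log2 change was 1.49 for CGG, 0.79 for overexpression, 1.68 for knockdown, 0.59 for CGG with overexpression and 1.4 for CGG with knockdown (SE 0.19 each), with adjusted p of 0.000319, 0.0456, 5.81e-05, 0.161 and 0.000487 in that order.

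The IDH1 call in overexpressing cells ended in 12 of 18 omissions of an array, among them control array 1 (0.83, adjusted p = 0.125) and 2 (0.67, 0.119) and each array of the group (0.73 to 0.89, adjusted p up to 0.184). TALDO1, the transaldolase of the pentose phosphate pathway, was called in no comparison, with changes of 0.32 to 0.68.

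The largest single change of the 36 genes lay in the detoxification class in each group. Its median change was 1.21, 1.05, 1.15, 1.07 and 0.99 in the usual order of groups, against 1.22, 0.79, 1.25, 0.59 and 1.08 in the NADPH class. EPHX1, microsomal epoxide hydrolase, read 11.99, 12.22 and 12.13 in CGG cells, 11.55, 11.81 and 11.57 in TRA2A-overexpressing cells and 12.39, 12.39 and 12.38 in TRA2A-knockdown cells. It read 12.15, 11.73 and 11.76 in cells with CGG and TRA2A overexpression and 11.90, 11.82 and 11.89 in cells with CGG and TRA2A knockdown, against 9.38, 10.17 and 9.91 in control cells. The knockdown arrays were the highest and lay close together, and the lowest transfected array, in the overexpression group, was far above control array 2, the highest control. Changes of EPHX1 were 2.29 for CGG, 1.82 for overexpression, 2.57 for knockdown, 2.06 for CGG with overexpression and 2.05 for CGG with knockdown (SE 0.19 each), with adjusted p of 2.8e-07 to 5.32e-05. In knockdown cells the change is 5.92-fold.

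NQO1, the quinone reductase often used as a readout of NRF2, had signals of 12.86, 13.45 and 13.35 in CGG cells, 12.72, 12.81 and 12.87 in TRA2A-overexpressing cells and 13.30, 13.17 and 13.37 in TRA2A-knockdown cells. They were 12.97, 12.68 and 12.63 in cells with CGG and TRA2A overexpression and 12.71, 12.85 and 13.04 in cells with CGG and TRA2A knockdown, against 10.82, 11.33 and 11.22 in control cells. Both the CGG and the knockdown groups held arrays above every overexpression array, CGG array 1 being lower than the other 2. Against controls, NQO1 changed by 2.10 for CGG, 1.68 for overexpression, 2.16 for knockdown, 1.64 for CGG with overexpression and 1.74 for CGG with knockdown (SE 0.19 each), with adjusted p of 2.86e-06 to 0.000163. CBR1, a carbonyl reductase, read 13.17, 12.97 and 13.21 in CGG cells, 13.14, 13.36 and 13.18 in TRA2A-overexpressing cells and 13.38, 12.98 and 13.37 in TRA2A-knockdown cells. It read 13.07, 13.00 and 13.38 in cells with CGG and TRA2A overexpression and 13.05, 12.71 and 13.27 in cells with CGG and TRA2A knockdown, against 10.56, 12.18 and 11.44 in control cells. The transfected groups overlapped one another, and the controls were spread widely, from array 1 to array 2. Changes of CBR1 were 1.72 for CGG, 1.83 for overexpression, 1.85 for knockdown, 1.76 for CGG with overexpression and 1.62 for CGG with knockdown (SE 0.28 each), with adjusted p of 0.00128 to 0.00531.

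**Figure D3:**
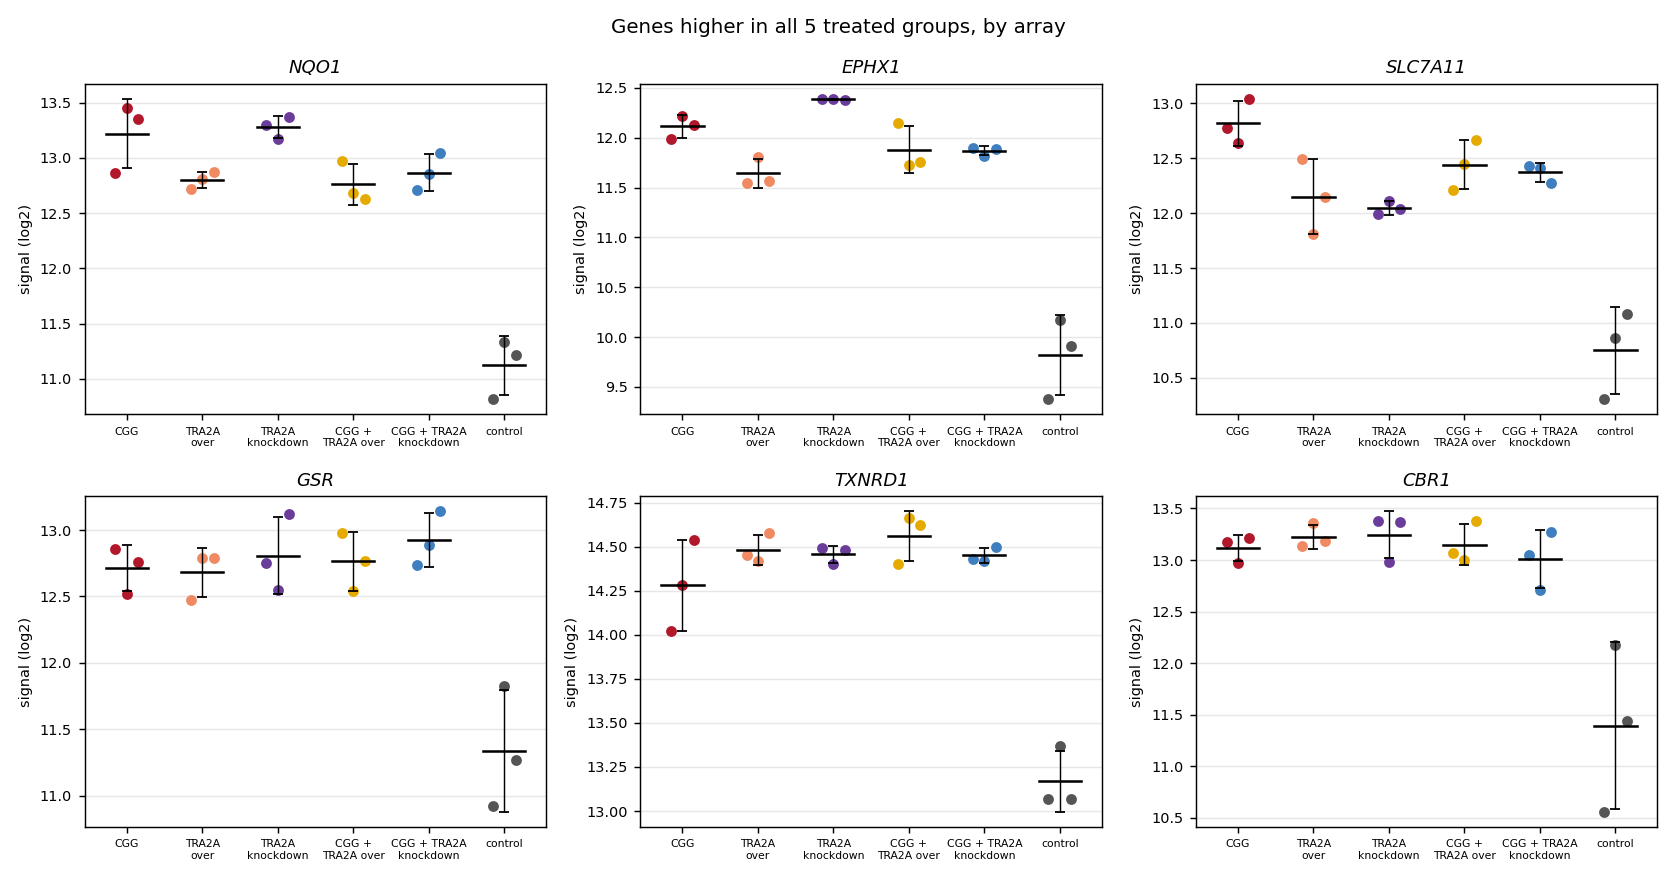
Signal (log2) of NQO1, EPHX1, SLC7A11, GSR, TXNRD1 and CBR1 in each array, by group, with the mean (bar) and SD of 3 arrays. In each panel all 15 arrays of transfected cells lie above the 3 control arrays, which reach 11.33 for NQO1 and 12.18 for CBR1.

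The calls of NQO1, EPHX1, SLC7A11, GSR, TXNRD1 and CBR1 ended in none of the 18 omissions of 1 array in any of the 5 comparisons. CBR3, a related carbonyl reductase, rose in overexpressing cells (1.04 ± 0.19 SE, adjusted p = 0.0111) and knockdown cells (0.77, adjusted p = 0.0473), and its change was 0.79, 0.67 and 0.37 in CGG, CGG with overexpression and CGG with knockdown. The CBR3 call in knockdown ended in 15 of 18 omissions, each control among them (adjusted p up to 0.257), and that in overexpression without control array 1 or overexpression array 2 or 3 (0.0524 to 0.0615). ABCC1, a pump that exports glutathione conjugates, was below controls in the mean of all 5 groups (-0.34 to -0.63) without a call. ABCC3, a related pump, changed by -0.46 in overexpressing cells and by 1.15 in knockdown cells, again without a call, its controls ranging from 8.75 to 10.52.

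UGDH, which makes the UDP-glucuronic acid used in glucuronidation, was high in 3 transfected groups and near the controls in both knockdown groups. Its signals were 15.45, 15.49 and 15.45 in CGG cells, 15.12, 15.31 and 15.50 in TRA2A-overexpressing cells and 14.30, 14.05 and 14.63 in TRA2A-knockdown cells. They were 15.35, 15.18 and 15.45 in cells with CGG and TRA2A overexpression and 14.34, 14.31 and 14.40 in cells with CGG and TRA2A knockdown, against 13.93, 14.31 and 14.53 in control cells. CGG, overexpression and CGG-with-overexpression arrays lay above every control, and both knockdown groups overlapped the controls. UGDH rose by 1.21 in CGG cells, 1.05 in overexpressing cells and 1.07 in CGG with overexpression (SE 0.18 each, adjusted p of 0.00220 to 0.00844), and changed by 0.07 and 0.09 in knockdown cells and CGG with knockdown (95% interval -0.32 to 0.46 and -0.29 to 0.48). Without control array 1 its call ended in overexpression (0.89, adjusted p = 0.0599) and CGG with overexpression (0.91, 0.0605), and without overexpression array 3 in overexpression (0.96, 0.0590).

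Of the other NRF2-linked genes, AIFM2, which encodes the ferroptosis suppressor FSP1, a reductase of coenzyme Q, rose in all 5 groups. It read 5.42, 5.71 and 5.81 in CGG cells, 5.11, 5.76 and 5.60 in TRA2A-overexpressing cells and 5.36, 5.30 and 5.36 in TRA2A-knockdown cells. It read 5.62, 5.27 and 5.54 in cells with CGG and TRA2A overexpression and 5.09, 5.39 and 5.45 in cells with CGG and TRA2A knockdown, against 4.42, 4.45 and 4.46 in control cells. The 3 controls lay close together and below all other arrays. Changes of AIFM2 were 1.2 for CGG, 1.05 for overexpression, 0.90 for knockdown, 1.03 for CGG with overexpression and 0.87 for CGG with knockdown (SE 0.18 each), with adjusted p of 0.00215 to 0.0244. A second cluster of AIFM2, of similar mean (5.22 against 5.28), went the other way: its change was -0.12 for CGG, -0.09 for overexpression, -0.01 for knockdown, -0.18 for CGG with overexpression and -0.37 for CGG with knockdown, so the rise was read from 1 of 2 clusters of the gene.

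AIFM2 calls ended without overexpression array 2 or 3 (adjusted p = 0.0634 and 0.0538), without control array 1 in the knockdown, CGG-with-overexpression and CGG-with-knockdown comparisons, without control array 2 in the last, and without knockdown array 1 or 3, CGG-with-overexpression array 1, and CGG-with-knockdown array 2 or 3 in their own comparisons, with adjusted p of 0.0536 to 0.117. TRIM16L, a relative of the ubiquitin ligase TRIM16, read 6.54, 6.05 and 6.56 in CGG cells, 6.76, 6.48 and 6.32 in TRA2A-overexpressing cells and 6.52, 6.42 and 6.85 in TRA2A-knockdown cells. It read 6.58, 6.17 and 6.76 in cells with CGG and TRA2A overexpression and 6.65, 6.39 and 6.77 in cells with CGG and TRA2A knockdown, against 4.90, 5.68 and 5.94 in control cells. All transfected arrays exceeded the controls, of which array 1 was the lowest. The log2 change was 0.88 for CGG, 1.01 for overexpression, 1.09 for knockdown, 1 for CGG with overexpression and 1.10 for CGG with knockdown (SE 0.25 each), and the calls were overexpression, knockdown and CGG with knockdown (adjusted p = 0.0490, 0.0279 and 0.0355).

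Without control array 1 no TRIM16L call remained (changes of 0.71 for overexpression, 0.79 for knockdown and 0.79 for CGG with knockdown, with adjusted p of 0.231, 0.157 and 0.185), and the overexpression call ended in 15 of 18 omissions. Knockdown array 1 or 3, control array 2 and any 1 array of CGG with knockdown also ended a call, with adjusted p of 0.0614 to 0.152. OSGIN1, an oxidative stress-induced growth inhibitor, PIR, a nuclear iron-binding protein, and TRIM16 were called in none at the gene level. CAT, catalase, the member with the smallest p among the enzymes of superoxide and peroxide, read 6.68, 6.20 and 6.85 in CGG cells, 6.17, 5.97 and 6.24 in TRA2A-overexpressing cells and 6.32, 6.41 and 6 in TRA2A-knockdown cells. It read 6, 5.93 and 6.39 in cells with CGG and TRA2A overexpression and 5.78, 6.37 and 6.75 in cells with CGG and TRA2A knockdown, against 5.72, 5.21 and 6.56 in control cells. Control array 3 lay within the CGG arrays and control array 2 below all others, so the groups overlapped. Neither CAT nor SOD1, the cytosolic superoxide dismutase, was called, with changes of 0.24 to 0.75 over both genes.

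Among the 5 transfected groups, 4 members differed: UGDH, IDH1, ME1 and MGST1 (limma F test over the 5 groups, adjusted p = 0.00143, 0.0102, 0.0104 and 0.0341), where 0.656% of tested clusters did. The direction was shared by IDH1, ME1 and MGST1 and opposite in UGDH. Overexpression minus knockdown was -0.89 for IDH1 (95% interval -1.29 to -0.50), -0.78 for ME1 (-1.10 to -0.46), -0.86 for MGST1 (-1.2 to -0.52) and 0.98 for UGDH (0.60 to 1.37), with adjusted p of 0.0390, 0.0236, 0.0152 and 0.0164. In this pair 0.405% of tested clusters were called. With CGG in both groups, overexpression minus knockdown was -0.82 for IDH1 (adjusted p = 0.0724), -0.68 for ME1 (0.0617), -0.49 for MGST1 (0.307) and 0.98 for UGDH (0.0187), and UGDH was the only member called, at a background of 0.379%. The 2 pairs share no array, but the F test that picked the 4 genes used the arrays of both. Their spread also comes from the same fit, so they are not fully separate evidence.

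The signals of MGST1 by array were 9.94, 9.98 and 10.21 in CGG cells, 9.50, 9.61 and 9.39 in TRA2A-overexpressing cells and 10.41, 10.35 and 10.32 in TRA2A-knockdown cells. They were 9.66, 9.93 and 9.45 in cells with CGG and TRA2A overexpression and 10.24, 10.02 and 10.26 in cells with CGG and TRA2A knockdown, against 9.4, 9.42 and 9.53 in control cells. Knockdown, CGG and CGG-with-knockdown arrays were all above the overexpression arrays, and those overlapped the controls.

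**Figure D4:**
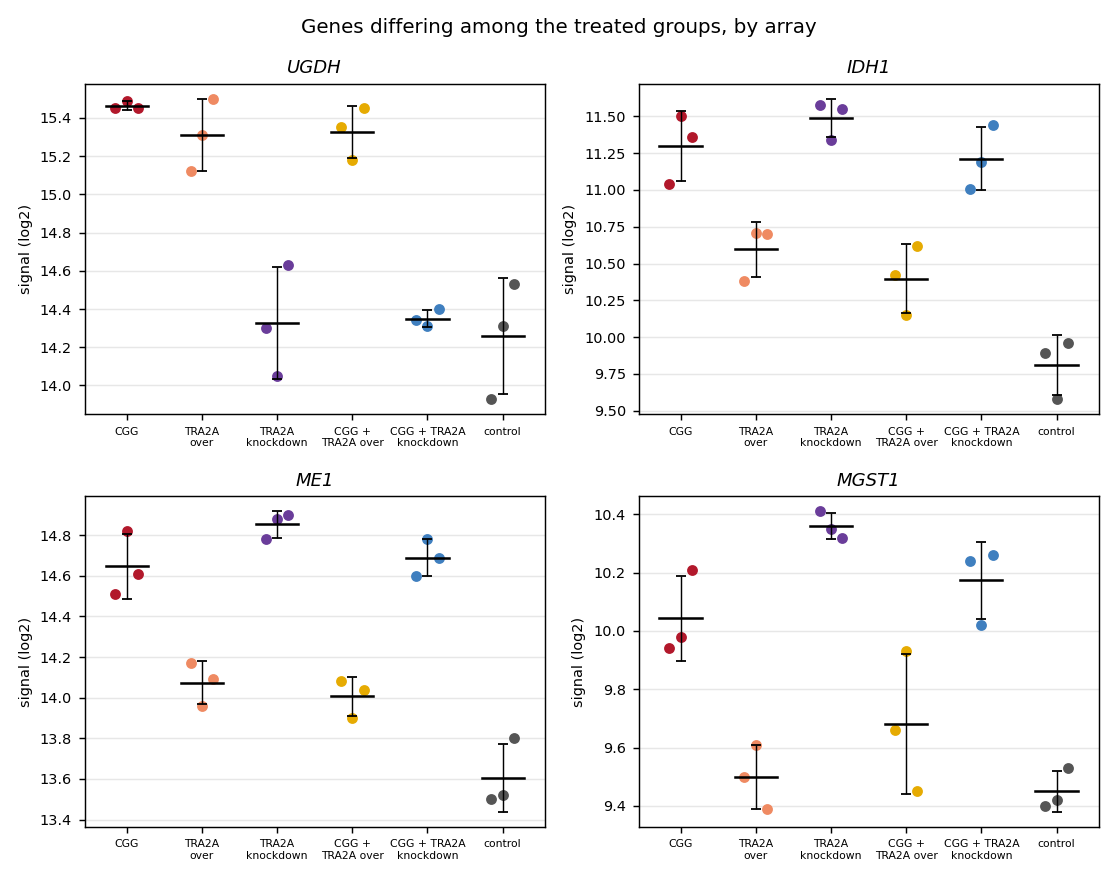
Signal (log2) of UGDH, IDH1, ME1 and MGST1, the 4 genes that differed among the transfected groups, in each array, with the mean (bar) and SD of 3 arrays. UGDH is low in both knockdown groups, near the controls, while IDH1, ME1 and MGST1 are low in both overexpression groups.

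UGDH was also 1.14 higher in CGG than in knockdown cells (adjusted p = 0.00935, background 0.149%) and 1.11 lower in CGG with knockdown than in CGG cells (change -1.11, adjusted p = 0.0119, background 0.147%). CGG with overexpression against CGG gave no call, where 0.0383% of tested clusters were called. At an unadjusted p below 0.05 it had 7 members, against 9.01% of clusters, and IDH1 was at -0.90 (95% interval -1.30 to -0.51, adjusted p = 0.119). CGG against overexpression gave no call, where 0.0501% of clusters were called. At an unadjusted p below 0.05 it had 8 members, against 7.01% of clusters, among them SLC7A11 at 0.67 (0.23 to 1.11). For CGG added to altered TRA2A, limma called no member in either comparison, with 0 members at an unadjusted p below 0.05 for CGG with overexpression against overexpression and 2 for CGG with knockdown against knockdown. The shares of all clusters called were 0.0059% in the first and 0% in the second, and those at an unadjusted p below 0.05 were 5% and 4.73%. NQO1 differed by -0.04 (-0.43 to 0.35) in the first and by -0.41 (-0.81 to -0.02) in the second, and EPHX1 by 0.24 (-0.16 to 0.63) and -0.52 (-0.91 to -0.12).

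The change that altered TRA2A makes in CGG cells, minus the change it makes without CGG, was called below 0 in 7 members for overexpression (background 0.197%) and in the same 7 for knockdown (background 0.13%), and above 0 in none. These were SLC7A11, PGD, TKT, ME1, IDH1, NQO1 and EPHX1, tested after their values were seen, and both tests use the same CGG and control arrays. The value equals the change with CGG when TRA2A is altered, minus the change of CGG against controls. It therefore holds the rise over controls already given, and the lack of a transfected control cannot be told apart from it. For NQO1 the value was -2.14 ± 0.26 with overexpression and -2.51 ± 0.26 with knockdown (SE, limma adjusted p = 0.00103 and 8.94e-05). With 1 array left out at a time, NQO1, EPHX1 and IDH1 kept the call in both tests. The call ended for SLC7A11 with knockdown without control array 1 or CGG array 3, and for TKT with overexpression without control array 1, overexpression array 2 or array 2 of CGG with overexpression. For PGD it ended in 8 of 18 omissions with overexpression and 6 with knockdown, and for ME1 in 11 and 8, control array 1 among them in each case (adjusted p up to 0.104).

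Each of the 4 calls of overexpression against knockdown ended without one of several arrays. For UGDH these were overexpression array 2 or 3 and knockdown array 1 or 2 (0.85 to 0.98, adjusted p of 0.0820 to 0.127). For ME1 any of the 6 arrays did so (adjusted p of 0.0594 to 0.147), as they did for IDH1 (0.0783 to 0.209), along with CGG array 3, array 1 of CGG with overexpression and array 2 of CGG with knockdown (0.0536 to 0.0591), and for MGST1 all but overexpression array 2 (0.0570 to 0.113). UGDH in CGG against knockdown was not called without knockdown array 1 (adjusted p = 0.0511) or 2 (0.0804), in CGG with knockdown against CGG without any CGG array or array 1 or 2 of CGG with knockdown (0.0546 to 0.0775), and in CGG with overexpression against CGG with knockdown without array 1 or 3 of CGG with overexpression or any 1 array of CGG with knockdown (0.0611 to 0.0992).

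Single markers of cell types also moved with this pattern, while most of their lists were not called. CLDN4, an epithelial tight-junction gene, rose in CGG cells (2.16 ± 0.28 SE), knockdown cells (2.55) and CGG with knockdown (2.47), and S100A4, a mesenchymal marker, by 1.10, 1.30 and 1.08 ± 0.22 in the same 3 groups, while neither was called in the overexpression groups. These were 1 of 6 epithelial and 1 of 7 mesenchymal markers measured. CLDN4 averaged 7.54 in overexpression and 7.74 in CGG with overexpression, against 6.55 in controls. In CGG, knockdown and CGG with knockdown, FN1 averaged 15.02, 15.20 and 15.29 against 15.82 in controls, and COL1A1 7.68, 7.72 and 7.83 against 8.45. VIM went the other way there, at 15.86, 15.76 and 15.74 against 15.50, and none of these was called in the 3 groups. The mean log2 level of the epithelial list was 9.78 to 10.12 in CGG, 9.68 to 9.94 in overexpression, 9.98 to 10.26 in knockdown, 9.80 to 9.93 in CGG with overexpression and 9.94 to 10.16 in CGG with knockdown, against 9.49 to 9.85 in controls. For the mesenchymal list it was 8.84 to 8.99, 8.85 to 8.98, 8.98 to 9.16, 8.91 to 9.11 and 8.95 to 9.11 in the same order of groups, against 8.89 to 9.19 in controls. PAX8, 1 of 7 tested tubule markers, fell by 1.09 in knockdown cells and by 1.14 in CGG with knockdown, and SERPINA1, 1 of 4 hepatocyte markers, fell by 1.49 in overexpressing cells and by 1.45 in CGG with overexpression. The mean of the tubule list was 5.36 to 5.67, 5.52 to 5.66, 5.47 to 5.55, 5.64 to 5.72 and 5.35 to 5.49 in the same order of groups, against 5.53 to 5.74 in controls. For the hepatocyte list it was 6.51 to 6.72, 6.38 to 6.48, 6.85 to 6.93, 6.46 to 6.53 and 6.70 to 6.90, against 6.82 to 7.08 in controls. VIM, a mesenchymal gene, rose in overexpressing cells (0.68). No leukocyte, endothelial, neuronal or erythroid marker was called. The part of these markers in the result was not tested.

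Below the gene, for single exon regions and junctions, the value of a feature minus that of its gene was tested, over 223702 features, 629 of them in 35 of the members. There were 20, 13, 18, 13 and 18 calls in members in the CGG, overexpression, knockdown, CGG-with-overexpression and CGG-with-knockdown comparisons, where 0.595%, 0.212%, 0.316%, 0.255% and 0.368% of all features were called. Leaving out 1 array gave 14 to 40, 4 to 28, 11 to 30, 6 to 28 and 10 to 27 calls, each highest count without control array 3. Their direction depended on the filter: in CGG cells 12 calls were above the gene and 8 below, against 16 and 47 with no filter on means and 3 and 3 above the 75th percentile. TRIM16, TRIM16L and EPHX1 held 14 of the 20 in CGG cells, and some of these features passed the filter only through the transfected groups. TRIM16 is a ligase of the tripartite-motif family. At the gene level TRIM16 was not called in any group, but 5 or 6 of its 11 features above the filter rose beyond the gene value in each comparison, and 9 of 11 had all 3 arrays of each group above the controls. Of the 11, 3 passed the filter only through the transfected groups. Over the 8 with a control mean above the filter, the count was 6 in each comparison. The shares of all features with all 3 arrays above the controls were 12.4%, 17.3%, 13.9%, 15.2% and 12.6% in the same order of groups.

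The feature of TRIM16 with the largest such change, the exon region PSR1700205423.hg.1, averaged 9.29 in CGG cells, 8.66 in overexpressing cells, 9.56 in knockdown cells, 8.18 in CGG with overexpression and 9.29 in CGG with knockdown, against 5.45 in controls. Its control mean was below the filter, so it passed only through the transfected groups, and the same holds for 3 of the 11 in all. Of these 11, 2 carried the same 18 values as a feature of TRIM16L, so the signals of these related genes are not fully separate. In TRIM16L, 6 of the 18 features above the filter had a control mean below it and also passed only through the transfected groups. Among them were PSR1700150540.hg.1, PSR1700150531.hg.1 and PSR1700150524.hg.1, called in CGG cells, with control means of 5.86, 5.75 and 7.38. Over all 37 listed features of TRIM16, with no filter, the median change was 0.69 in CGG, 0.45 in overexpression, 0.64 in knockdown, 0.46 in CGG with overexpression and 0.62 in CGG with knockdown.

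**Figure D5:**
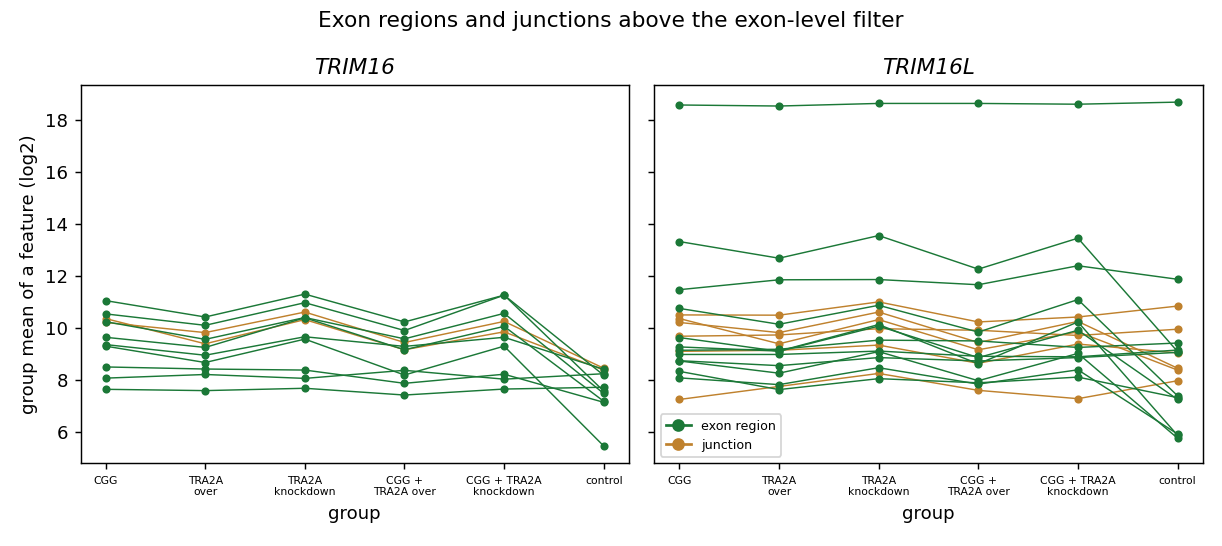
Group means (log2) of the features above the filter of TRIM16 and TRIM16L, one line for each feature, across the 5 transfected groups and the controls. Several TRIM16 features drop by 2 or more in controls while others stay level, such as the TRIM16L feature at 18.52 to 18.67 in all groups.

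EPHX1 showed the reverse: 15 of its 17 features above the filter had all 3 CGG arrays above the controls, and 4 were called below the gene change. Of those 15, 4 had a control mean below the filter and so passed only through the transfected groups, and over all 25 listed features the median change in CGG cells was 1.85. Over the 13 features with a control mean above the filter, 11 had all 3 CGG arrays above the controls. The exon region PSR0100186873.hg.1 averaged 8.26 in CGG cells and 8.47 in controls, and in knockdown cells 8.35, while its gene rose. In NQO1 all 13 features had every array above the controls in all 5 groups, 1 of them with a control mean below the filter. The median change in CGG cells was 1.72 over all 20 listed features of NQO1. In UGDH, 23 of 33 features in CGG cells, 27 in overexpression and 28 in CGG with overexpression were above all controls, against 1 in knockdown and 0 in CGG with knockdown. Of these 33, 2 had a control mean below the filter. Over the other 31 the counts were 21, 25 and 27, and 0 in both knockdown groups. Over all 43 listed features of UGDH the median change was 0.76, 0.73 and 0.78 in the first 3 of these groups, and -0.22 and -0.18 in the knockdown groups.

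In TXNRD1, single features departed from the gene: in CGG cells the junction JUC1200056679.hg.1 and the exon region PSR1200164112.hg.1 were above the gene change by 1.68 and 1.27 (adjusted p = 0.0117 and 0.00717), and in CGG with overexpression 2 other junctions were below it by -2.48 and -1.97 (adjusted p = 0.00585 and 0.0295). That exon region was also above the gene in overexpression (1.10, adjusted p = 0.0382), and the junction JUC1200056656.hg.1, at -2.48, was at -1.80 in CGG with knockdown (adjusted p = 0.0454). Whether these features differ between groups was not tested.

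Other genes of the pathway, from lists that overlap none of the 37, are given by count. Over all tested clusters, 0.504%, 0.949%, 1.13%, 0.732% and 0.682% were called higher in CGG, overexpression, knockdown, CGG with overexpression and CGG with knockdown. Over those with 1 symbol the shares were 1.09%, 2.13%, 2.62%, 1.68% and 1.6%. The shares of all tested clusters called lower were 0.165%, 0.298%, 0.42%, 0.159% and 0.298%. These shares apply to all the lists below. Of 11 heme, iron and aldo-keto reductase targets, 7 rose in CGG, 5 in overexpression, 7 in knockdown, 4 in CGG with overexpression and 7 in CGG with knockdown, with medians of 1.31, 0.88, 1.52, 0.92 and 1.42 and no falls. HMOX1, heme oxygenase, had the largest change of the pathway: it averaged 11.59, 11.54, 11.50, 11.16 and 11.19 in the 5 groups in that order, against 5.76 in controls, and AKR1B10, an aldo-keto reductase, rose by 3.32, 2.20, 3.35, 2.22 and 2.99 (SE 0.26 each). FTL, the light chain of ferritin, rose in all 5 by 1.12 to 1.59, and AKR1C3, whose close relatives could share probes, by 0.90 to 1.65.

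Of 11 further regulators, SQSTM1 (p62), which competes with NRF2 for KEAP1, rose by 3.89, 3.67, 3.28, 3.74 and 3.33 in the same order of groups (SE 0.17 each), and NFE2L3, a relative of NRF2, by 1.4 in overexpression and 1.30 in CGG with overexpression. RBX1, a subunit of the ligase that KEAP1 recruits, fell by 0.96 in knockdown cells, and 9 or 10 of the 11 were not called in each comparison. Of 30 other glutathione genes, 0, 2, 2, 4 and 0 rose in the same order of groups. CHAC1, which degrades glutathione, rose in overexpression (1.33) and CGG with overexpression (1.83), as did SLC3A2, the heavy chain partner of SLC7A11 (1.25 and 1.32), and GSTM2 in knockdown (1.28) and CGG with overexpression (1.33). GSTM1 rose in CGG with overexpression (1.16), though these close relatives may share probes.

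Of 10 other thioredoxin genes, 1 rose in each of CGG, overexpression, knockdown and CGG with overexpression. It was SESN2, a stress-induced sestrin, in CGG (1), overexpression (0.97) and CGG with overexpression (1.11), and TXNIP, the thioredoxin inhibitor, in knockdown (1.18). Of 14 other NADPH genes, IDH2, the mitochondrial isocitrate dehydrogenase, rose in CGG (0.72) and knockdown (0.89), and ME2 fell by 0.72 in CGG with knockdown. Of 15 other detoxification genes, NQO2 rose in CGG (0.87), overexpression (1.14), knockdown (1.01) and CGG with overexpression (1.01), and ALDH1A1, an aldehyde dehydrogenase, in all but CGG (0.88 to 1.24). SULT1A1, a sulfotransferase, rose in knockdown (1.05) and ABCC5, an export pump, in CGG with knockdown (1.07). SOD2, the mitochondrial superoxide dismutase, rose in CGG (1.54) and knockdown (1.10). Among the transfected groups ME2 was 0.79 higher in overexpression than in knockdown (limma adjusted p = 0.0244), and 0.91 higher with CGG in both groups (0.00831). SOD2 was lower than in CGG both in CGG with overexpression (-1.19, adjusted p = 0.0115) and in CGG with knockdown (-0.93, 0.0322). It was also 0.97 higher in CGG than in overexpression (0.0463). In these pairs 0.405%, 0.379%, 0.0383%, 0.147% and 0.0501% of tested clusters were called, in that order. MAFK, FTH1, PRDX5, POR and a few others of these lists were not analysed here.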

How the data were processed

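The authors deposited log2 values per transcript cluster for 18 arrays, made by SST-RMA per the file headers, which adjusts probe signals before robust averaging over arrays. The submitters' processing notes name RMA and the Transcriptome Analysis Console without versions. A second table, deposited in log2 units per the file headers, holds exon regions and junctions, and its gene values equal those of the gene file. Genome build and probe mapping are not given in the sources used here. No raw intensities were used, and precision is limited by the number of arrays. Monkey sequence can mismatch human probes, equally in every group, so levels are compared within a gene.

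Clusters with a mean above 4.14, the median of means, were tested, 67854 of 135750. A single limma model of 6 group means over 18 arrays (limma 3.58.1, R 4.3.3) gave 13 pairwise comparisons and an F test over the 5 transfected groups, two-sided, adjusted by Benjamini-Hochberg over all tested clusters. Errors are the model's SE over 3 and 3 arrays, and 95% intervals use its moderated degrees of freedom. Exon-level features above 7.46, in genes with at least 3 of them, were tested as the feature minus its gene. The scripts were tested on simulated data. Genes given by array were the 3 regulators and, per class, at most 4 of the called members, by size of change, or the smallest p where none was called, and MGST1, which differed among the transfected groups, was added after its values were seen. From each pathway list up to 4 called genes were named. Members, lists and tests were chosen with earlier results of these data known. Alternatives were 2 filters, quantile normalization, the variance of only the arrays compared, a trended and robust variance, rehybridisation as a covariate, a block for replicate number, a second cluster, a fold rule, and each array left out in turn. The median of a gene's exon-level features was added after seeing the data, as were leaving out arrays in the interaction tests and counts over all listed features.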

Additional observations from a re-analysis of the deposited data

Results flagged for a closer look

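A limma interaction, adjusted over all tested clusters, was chosen after the values were seen. In 7 members the change that came with altered TRA2A in CGG cells, minus the change without CGG, was called below 0. For overexpression it was -2.14 for NQO1, -2.06 for EPHX1, -1.78 for SLC7A11, -1.70 for TKT, -1.69 for IDH1, -1.30 for PGD and -1.11 for ME1, and 0.197% of tested clusters were called below 0. For knockdown it was -2.81 for EPHX1, -2.51 for NQO1, -1.78 for TKT, -1.77 for IDH1, -1.74 for SLC7A11, -1.39 for PGD and -1.20 for ME1, where 0.13% were. Both tests use the same CGG and control arrays, and the controls carry no stated transfection, so the interaction and the lack of a transfected control cannot be told apart. Each value also equals the change with CGG when TRA2A is altered, minus the change of CGG against controls. It therefore holds the rise over controls already given and is not separate evidence.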

How the results depend on the processing

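NQO1 and EPHX1 kept their calls against controls in all 5 comparisons under every alternative run. Other calls were less stable: of 112 named results, 10 lost their call with no filter, 10 with quantile normalization (where 3 more turned sign), 4 with rehybridisation as a covariate and 20 under the fold rule. With the variance of only the arrays compared, 61 lost it. The 112 include results not called in the main fit, such as those of KEAP1, which could not lose a call. Members called against controls numbered 14, 13, 16, 10 and 14 with no filter and 15, 14, 17, 9 and 14 with quantile normalization, in the order CGG, overexpression, knockdown, CGG with overexpression and CGG with knockdown. Shares of all clusters called in either direction were 0.255%, 0.415%, 0.611%, 0.292% and 0.396% with no filter. With quantile normalization they were 0.816%, 1.15%, 1.5%, 0.641% and 0.984%. With the variance from only the arrays compared, the members called against controls numbered 5 for CGG, 2 for overexpression, 6 for knockdown, 3 for CGG with overexpression and 5 for CGG with knockdown, overexpression against knockdown called 1, and CGG against knockdown, CGG with knockdown against CGG, and CGG with overexpression against CGG with knockdown called 0. These fits use fewer arrays, and against controls they called 0.0811%, 0.0486%, 0.199%, 0.059% and 0.128% of all clusters in the same order. For the other settings the cause was not tested. CGG with overexpression against CGG with knockdown called 3 above the 75th percentile, with quantile normalization and with a trended and robust variance, and CGG with overexpression against CGG called 1 with quantile normalization and 2 with the trended and robust variance. Shares of all clusters called were 1.37%, 0.416% and 0.634% in the first pair and 0.0427% and 0.0973% in the second. A fold of at least 2 with an unadjusted p under 0.05 called 1 in CGG against overexpression and 1 in overexpression against knockdown, where 0.292% and 0.494% of all clusters passed. The median of exon-level features, chosen after seeing the data, called 3 in CGG against knockdown, 9 in overexpression against knockdown, 2 in CGG with overexpression against CGG, 7 in CGG with overexpression against CGG with knockdown and 9 among the transfected groups. By this summary 3.46%, 8.02%, 1.47%, 7.38% and 10.6% of all 13055 genes were called in the same order. Exon-level calls in members were 63, 34, 58, 34 and 47 with no filter and 6, 4, 7, 6 and 6 above the 75th percentile, in the order CGG, overexpression, knockdown, CGG with overexpression and CGG with knockdown. Shares over all features are not given for these settings. Leaving out 1 array in turn gave 12 to 15, 7 to 18, 14 to 18, 7 to 14 and 10 to 17 members called against controls in that order, and 14 to 40, 4 to 28, 11 to 30, 6 to 28 and 10 to 27 exon-level calls. It gave 0 to 0 for CGG against overexpression, 0 to 1 for CGG against knockdown, 0 to 5 for overexpression against knockdown, 0 to 0 for CGG with overexpression against CGG, 0 to 1 for CGG with knockdown against CGG, 0 to 0 for CGG added to overexpression and to knockdown, 0 to 1 for CGG with overexpression against CGG with knockdown, and 3 to 5 among the transfected groups. Calls over all tested clusters also varied with these omissions. Against controls they numbered 179 to 703, 188 to 1524, 481 to 1319, 154 to 1218 and 323 to 897 in that order. For the pairs they numbered 8 to 36, 58 to 123, 133 to 295, 5 to 166 and 46 to 114 in the order given. For CGG added to overexpression and to knockdown they were 0 to 124 and 0 to 1. They were 120 to 336 for the last pair and 319 to 540 among the transfected groups.

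Signs turned for members near 0. MGST1 in overexpression was -0.08 with quantile normalization, -0.01 to 0.10 when 1 array was left out (lowest without overexpression array 2) and -0.07 from the feature median, and -0.23 from the feature median in CGG with overexpression. UGDH in knockdown was -0.06 with quantile normalization, -0.09 to 0.21 when 1 array was left out (-0.09 without control array 1, -0.08 without knockdown array 3) and -0.31 from the feature median, and in CGG with knockdown -0.01 with quantile normalization and -0.07 (without control array 1) to 0.23. The second cluster of AIFM2 gave -0.12, -0.09, -0.01, -0.18 and -0.37 in the order above, and its feature median -0.01 in CGG with overexpression. KEAP1 in CGG with overexpression was -0.02 (without control array 1) to 0.52, and from the feature median -0.25 in CGG, -0.08 in knockdown, -0.06 in CGG with overexpression and -0.01 in CGG with knockdown. CAT was -0.01 to 0.66 in overexpression and -0.03 to 0.64 in CGG with overexpression, lowest without control array 2.

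Same-numbered arrays do not pair: over 45 pairs of them, deviations from group means correlated at -0.121 to 0.158, against -0.174 to 0.166 for other pairs, and 4 of 18 arrays were most alike to one of their own number. With the replicate block, 14, 17, 16, 13 and 14 members were called against controls, where 0.638%, 1.2%, 1.5%, 0.797% and 0.867% of all clusters were. Of 112 named results 2 lost their call, MGST1 (0.72, adjusted p = 0.0546) and NFE2L2 (0.72, adjusted p = 0.0506) in CGG with knockdown. GCLC in CGG with knockdown (0.78, 0.0532) and CBR3 in knockdown (0.77, 0.0608) also lost theirs. Neither was called with no filter (0.0551 and 0.0730), with the variance of only the arrays compared or under the fold rule.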
